A study of Mus musculus with 24 samples.

Results

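The 54 genes described here encode the contractile apparatus of striated muscle and the proteins that trigger, fuel and maintain it. They were listed by symbol as myosins, actins, troponins, M band, titin and Z disc proteins, calcium handling proteins, acetylcholine receptor subunits and a small set of other muscle genes. Where a gene had several probe sets, the one brightest on average across the 24 arrays stood for it. All 54 were found among the 18193 genes with a named probe set, and 50 were among the 13942 genes tested. A gene was tested if its level passed the 40th percentile of the array, at a log2 signal of 6.33 to 6.47, on at least 3 arrays. The fast myosin Myh2, the slow and cardiac light chain Myl2, the fast myosin-binding protein Mybpc2 and the leiomodin Lmod2 did not pass, and their highest levels were 4.72, 6.72, 6.08 and 5.85. Of the 50 tested members, 21 were above the filter level on all 24 arrays and 29 were below it on at least 1 array. A change towards a group below that level is a lower limit of its size. The counts below describe the 50 genes that passed and not the whole list. The list was chosen with earlier results of these data known, so setting its counts beside the shares of all genes is no independent test. Myh1, Xirp1, Cacna1s, Cacng1 and Atp1b4 would not have passed the filter without the control mandible arrays. For these genes a higher level in control mandible was partly set by the filter.

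The arrays measured total RNA of jaw pieces from mouse embryos of the C57B6 strain at E14.5. Mutant embryos came from matings of Wnt1cre;Alk5fl/+ with Alk5fl/fl mice and were picked out by their cleft palate and skull vault defect, and their littermates without these defects served as controls. Alk5 is the type I TGF-beta receptor gene Tgfbr1. Mandible and maxilla were each cut into a distal and a proximal end, labelled as bone, which gives 8 groups of 3 arrays: mutant and control distal mandible, mutant and control proximal mandible, mutant and control distal maxilla, and mutant and control proximal maxilla. Whether the 3 arrays of each group are 3 embryos is not in the labels, so p-values measure the spread between arrays. The labels also do not give the Cre status of the controls.

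Striated muscle contracts when myosin heads of the thick filament pull on actin in the thin filament. Troponin and tropomyosin make this depend on calcium, which the ryanodine receptor releases after acetylcholine has opened its receptor on the fibre. Muscle fibres form in waves in the embryo, and embryonic and perinatal myosins precede the adult fast and slow forms. In the head, muscle cells come from cranial mesoderm, whereas tendons and connective tissue come largely from the neural crest, the lineage in which Wnt1-Cre recombines floxed alleles. The pieces are bulk tissue, so fewer muscle cells and less RNA per muscle cell cannot be told apart.

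The median log2 signal of an array ranged from 7.03 to 7.12. Levels of the targeted gene Tgfbr1 were 12.20 to 12.57 on mutant arrays and 11.92 to 12.36 on control arrays, so they were not lower in mutants. Where its probe set lies relative to the deleted part is not given in the sources used here, so this checks nothing. Mutant distal maxilla 3 and mutant proximal maxilla 3 stood apart: they correlated less with the other arrays of their own group (0.9725 and 0.9688) than with the mutant mandible group of the same end (0.9760 and 0.9811). For mutant distal maxilla 3 the correlation with control distal maxilla was nearly as high (0.9755). The counts for the maxilla, the mean of regions and the difference between jaws are given with and without both mutant maxilla arrays numbered 3. Among mutants, arrays numbered 1 and 3 carried both Xist (11.15 to 12.79) and Y-linked RNA (8.86 to 9.74), while among controls those numbered 1 carried Xist and those numbered 2 and 3 Y-linked RNA. Mutant arrays numbered 2 carried Xist (13.03 to 13.39) and little Y-linked RNA (3.88 to 4.14). The 3′ minus 5′ signal of Pcx, a measure of RNA integrity, ran from 1.14 to 1.81 and was highest on mutant proximal maxilla 3.

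Markers of the skeletal muscle lineage were measured in every region. Myog, a transcription factor that drives fusion and differentiation of muscle cells, was at 10.64, 8.28 and 11.15 in mutant distal mandible, against 10.49, 10.83 and 11.00 in control distal mandible. In control maxilla it ranged from 7.83 to 10.54. The cardiac markers Nppa, Myh6 and Myl7 stayed below the filter level on every array, with Nppa at no more than 4.37. The other cardiac markers lay near or just above that level in all groups: Nkx2-5, a cardiac transcription factor, ranged from 6.81 to 7.55 and Nppb, a natriuretic peptide, from 6.12 to 6.86, and neither passed between mutants and controls in any region. The smooth muscle actin Acta2 was bright in all groups, and its change in mutant distal mandible (-0.97, standard error (SE) 0.46) did not pass the test. The tissue thus held skeletal muscle RNA, although its compartment was labelled as bone.

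The 50 members varied far more between regions than a typical gene. The distance between the highest and the lowest of the 8 group means had a median of 3.55 on the log2 scale among members (0.43 to 5.60), against 0.38 among all genes tested. The highest mean was in mutant proximal mandible for 3 members, in control distal mandible for 4 and in control proximal mandible for 43. The lowest was in mutant distal maxilla for 23 members and in control distal maxilla for 24. The distal maxilla of either genotype was thus the dimmest tissue for most members and the control mandible the brightest.

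Among thick filament genes, the perinatal myosin Myh8 had the widest range. Its log2 level was 5.91, 4.87 and 6.47 in mutant distal mandible, against 9.48, 10.09 and 10.54 in control distal mandible. In mutant proximal mandible it was 7.80, 7.17 and 8.81, against 9.46, 9.98 and 10.93 in control proximal mandible. Mutant and control arrays did not overlap at either end of the mandible. In the maxilla they did: 4.26, 4.60 and 5.98 in mutant distal maxilla, against 4.21, 4.83 and 4.79 in control distal maxilla. Proximal maxilla gave 6.47, 7.01 and 9.46 in mutants and 7.71, 9.51 and 6.67 in controls.

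The embryonic myosin Myh3, the main heavy chain of fibres at this age, was at 10.11, 8.08 and 10.43 in mutant distal mandible, against 12.67, 13.02 and 13.21 in control distal mandible. In mutant proximal mandible it was 11.97, 11.05 and 12.40, against 12.53, 12.84 and 13.53 in control proximal mandible. Distal ends were far apart and proximal ends only just separate. The slow and ventricular light chain Myl3 hardly varied on its brightest probe set, with group means from 6.49 in control proximal maxilla to 7.10 in control proximal mandible. A dimmer Myl3 probe set, with a mean of 5.97, changed by -1.44 in the distal and -2.09 in the proximal mandible of mutants. Another, with a mean of 6.66, changed by -0.38 and -0.57.

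Titin, the spring that spans from M band to Z disc and is encoded by Ttn, was at 7.82, 5.91 and 7.99 in mutant distal mandible, against 11.13, 11.32 and 11.67 in control distal mandible. In mutant proximal mandible it was 9.97, 8.70 and 10.32, against 11.06, 11.27 and 12.10 in control proximal mandible. All mutant values lay below all control values at both ends. The M band protein Myom2 had the same order, with means of 6.92 ± 0.94 in mutant and 10.38 ± 0.40 in control distal mandible (SD, n = 3 each). Xirp1, an actin-binding repeat protein of muscle attachment sites, stayed dim, with means from 5.80 in mutant distal maxilla to 6.69 in control proximal mandible.

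In the thin filament, the fast calcium-binding subunit Tnnc2 was at 9.49, 6.91 and 9.41 in mutant distal mandible, against 10.99, 12.16 and 12.29 in control distal mandible. In mutant proximal mandible it was 11.25, 9.81 and 11.53, against 11.49, 11.75 and 12.58 in control proximal mandible, so the groups overlapped there. Tnnt2, the troponin T of heart and of embryonic skeletal muscle, averaged 10.88 ± 0.69 in mutant and 10.97 ± 0.59 in control proximal mandible (SD, n = 3 each). Tpm2, a tropomyosin that non-muscle and smooth muscle cells also express, varied least on its brightest probe set, from 11.14 in mutant distal maxilla to 11.62 in control proximal mandible. That probe set changed by -0.25 in the distal and -0.31 in the proximal mandible. Its dimmer probe sets, with means of 10.78, 10.29 and 6.72, changed by -0.36, -0.87 and -0.51 (distal) and -0.34, -0.18 and -0.07 (proximal).

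Among calcium handling genes, Casq2, a calcium store protein of the slow and cardiac reticulum, was at 7.98, 7.06 and 8.09 in mutant distal mandible, against 9.50, 9.93 and 10.53 in control distal mandible. Ryr1, the calcium release channel of skeletal muscle, was at 6.77, 5.97 and 6.84 in mutants there, against 8.05, 8.38 and 8.70 in controls. For both genes the groups did not overlap. The calcium channel gamma subunit Cacng1 was dim, with its lowest mean of 5.38 in control proximal maxilla and its highest of 6.77 in control proximal mandible. Of the acetylcholine receptor genes, the alpha subunit Chrna1 was at 10.14, 9.72 and 10.56 in mutant proximal mandible, against 9.69, 10.01 and 10.69 in control proximal mandible. The fetal gamma subunit Chrng averaged 8.69 ± 0.53 in mutant and 8.88 ± 0.48 in control proximal mandible (SD, n = 3 each). The delta subunit Chrnd varied little, from 7.24 in mutant distal maxilla to 7.66 in mutant proximal mandible.

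**Figure D1:**
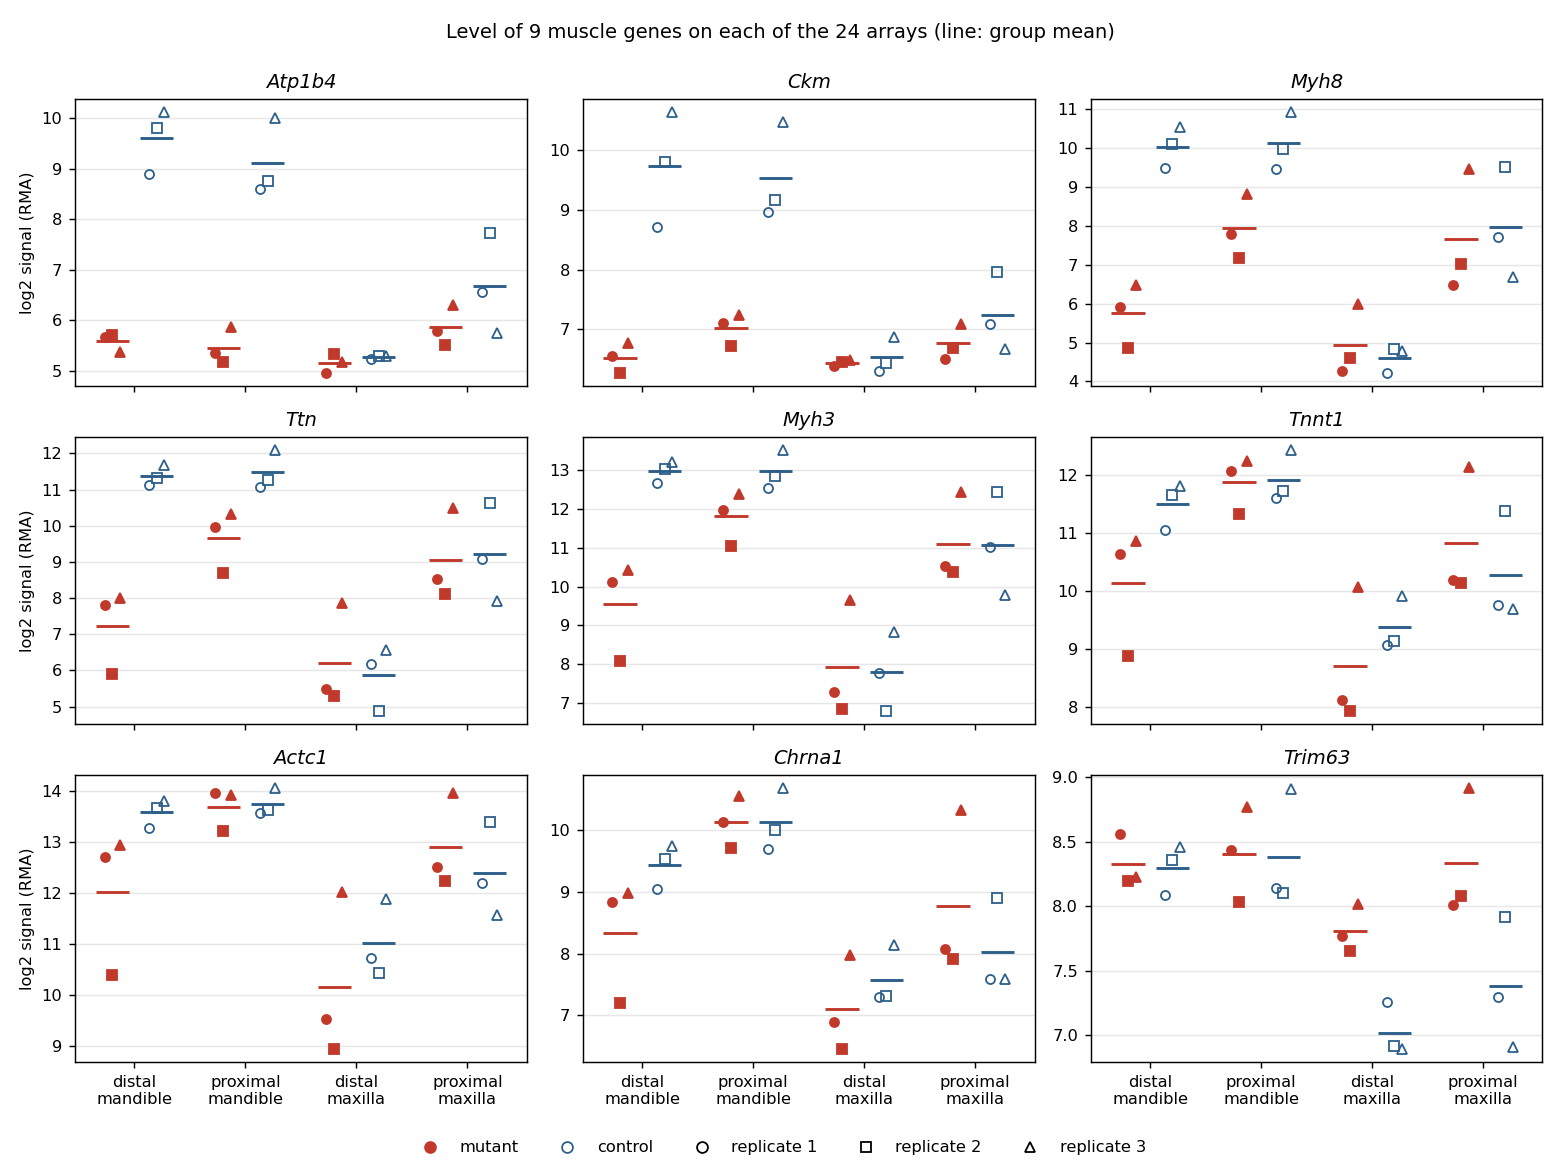
Log2 signal (vertical axis) of 9 members on each of the 24 arrays, by region (horizontal axis), with filled red symbols for mutants left of open blue symbols for controls and a line at each group mean. Atp1b4 and Ckm were low on all 6 mutant mandible arrays, whereas Tnnt1, Actc1 and Chrna1 overlapped between mutant and control in the proximal mandible.

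In controls, the median change of the members was larger between jaws, averaged over both ends, than between the ends of either jaw. Jaw and end differences were not tested against each other. The means of all 50 members were higher in the mandible than in the maxilla and passed the test (limma, Benjamini-Hochberg adjusted p under 0.05 over all genes tested), where 34.7% of all genes tested passed in either direction, 16.7% higher and 18.1% lower. The median change of the members was 2.61 on the log2 scale, against 0.012 for all genes tested. For Myh1, Xirp1, Cacna1s, Cacng1 and Atp1b4 the filter partly set this direction, as they would not have passed it without control mandible arrays. The largest were Ttn (3.88, SE 0.55, limma adjusted p = 1.92e-05), Myh8 (3.79), Tnnc2 (3.70) and Tceal7 (3.58), a small nuclear protein gene of the Tceal family. Muscle regulators moved less evenly: of 17 measured, 9 were higher and 4 lower in control mandible than in control maxilla. The satellite cell factor Pax7, which head mesenchyme also expresses, was lower by this contrast (-1.47, limma adjusted p = 0.000174). Eya1, a transcriptional cofactor, was also lower (-0.83), and Mef2c, a muscle transcription factor, was higher (0.92).

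Within the control mandible, no member passed between distal and proximal ends, and none had an unadjusted p under 0.05 in limma, where 5.45% of all genes tested passed (2.54% lower and 2.91% higher). The largest change was that of the fast myosin Myh1 (-0.80, SE 0.50). Within the control maxilla 15 members were lower at the distal end than at the proximal end and none was higher, where 10.9% of all genes tested passed (5.99% lower and 4.9% higher). Their median change was -1.39, against -0.019 for all genes tested, and for 29 members the distal arrays lay below all proximal ones, as for 14.8% of all genes. The largest were Tnnc2 (-3.51, limma adjusted p = 0.00438), Myh8 (-3.35), Ttn (-3.33) and Myh3 (-3.29). Control proximal maxilla 2 was the highest of its group for 49 of the 50 members, with a member median of 8.97 against 7.38 and 6.98 on the other arrays. Without it 2 members passed. The count was 9 without control distal maxilla 1 or 2, and 8 without control proximal maxilla 1.

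Muscle genes were broadly lower in mutants in the distal mandible. Of the 50 members 35 were lower in mutants than in controls, none was higher, and 16.0% of all genes tested passed in either direction (7.98% lower and 8.02% higher). The median change was -2.0, against 0.038 for all genes tested. Because the list was chosen with earlier results known, this contrast with all genes is no independent support. For 47 members the 3 mutant arrays lay below the 3 control arrays, as for 17.0% of all genes. Mutant distal mandible 2 was the lowest of its group for 43 members and control distal mandible 1 for 48, so the arrays of a group moved together across the list. The count fell to 20 without mutant distal mandible 2 and to 22 without control distal mandible 3. Mutant distal mandible 2 and control distal mandible 1 both carried Xist and little Y-linked RNA (4.14 and 3.97). With Y-linked RNA minus Xist as a covariate, 34 of the 35 members still passed. Mutant arrays numbered 1 and 3 carried both and no control array did, so this covariate does not mean the same in both genotypes.

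All 13 measured M band, titin and Z disc genes fell in the distal mandible, as did 8 of 10 thick filament genes, 6 of 12 thin filament genes, 4 of 6 calcium handling genes and 4 of 6 energy and other genes. None of the 3 acetylcholine receptor genes passed. The largest falls were those of Myh8 (-4.29, SE 0.73, limma adjusted p = 0.000683), Tceal7 (-4.21, SE 0.66), Ttn (-4.13, SE 0.78) and Atp1b4 (-4.02, SE 0.41, limma adjusted p = 6.23e-06). For Myh8 this was a 19.5-fold lower signal. Tceal7 was at 6.39, 4.12 and 6.07 in mutants, against 9.11, 9.90 and 10.19 in controls. The Z disc scaffold Ldb3 fell by 3.32, the thin filament ruler nebulin (Neb) by 2.78 and skeletal actin (Acta1) by 3.07. Dimmer probe sets of Ldb3 changed by -0.72 and -0.80. The smallest falls that passed were those of Xirp1 (-0.53) and the titin cap Tcap (-0.84).

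By fibre type, 9 of 10 fast-type members fell in the distal mandible, 3 of 7 slow-type or cardiac members and 3 of 6 embryonic or perinatal members, and these shares were not tested against each other. In the troponin complex, the fast subunits Tnni2 (-2.49), Tnnc2 (-3.21) and Tnnt3 (-2.89) fell. Their slow paralogues had changes of -1.88 (Tnni1, limma adjusted p = 0.0735), -1.80 (Tnnc1) and -1.37 (Tnnt1) and did not pass. The difference between paralogues was not tested, and Tnni1, Tnnc1 and Tnnt1 passed with array weights and when both mutant maxilla arrays numbered 3 were left out of the shared spread. Cardiac actin Actc1, the main sarcomeric actin of young skeletal fibres, was at 12.71, 10.38 and 12.94 in mutants, against 13.27, 13.66 and 13.81 in controls. Its change of -1.57 (SE 0.71) did not pass, although the arrays did not overlap. Mutant distal mandible 2 supplied much of it: without this array the change was -0.75.

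**Figure D2:**
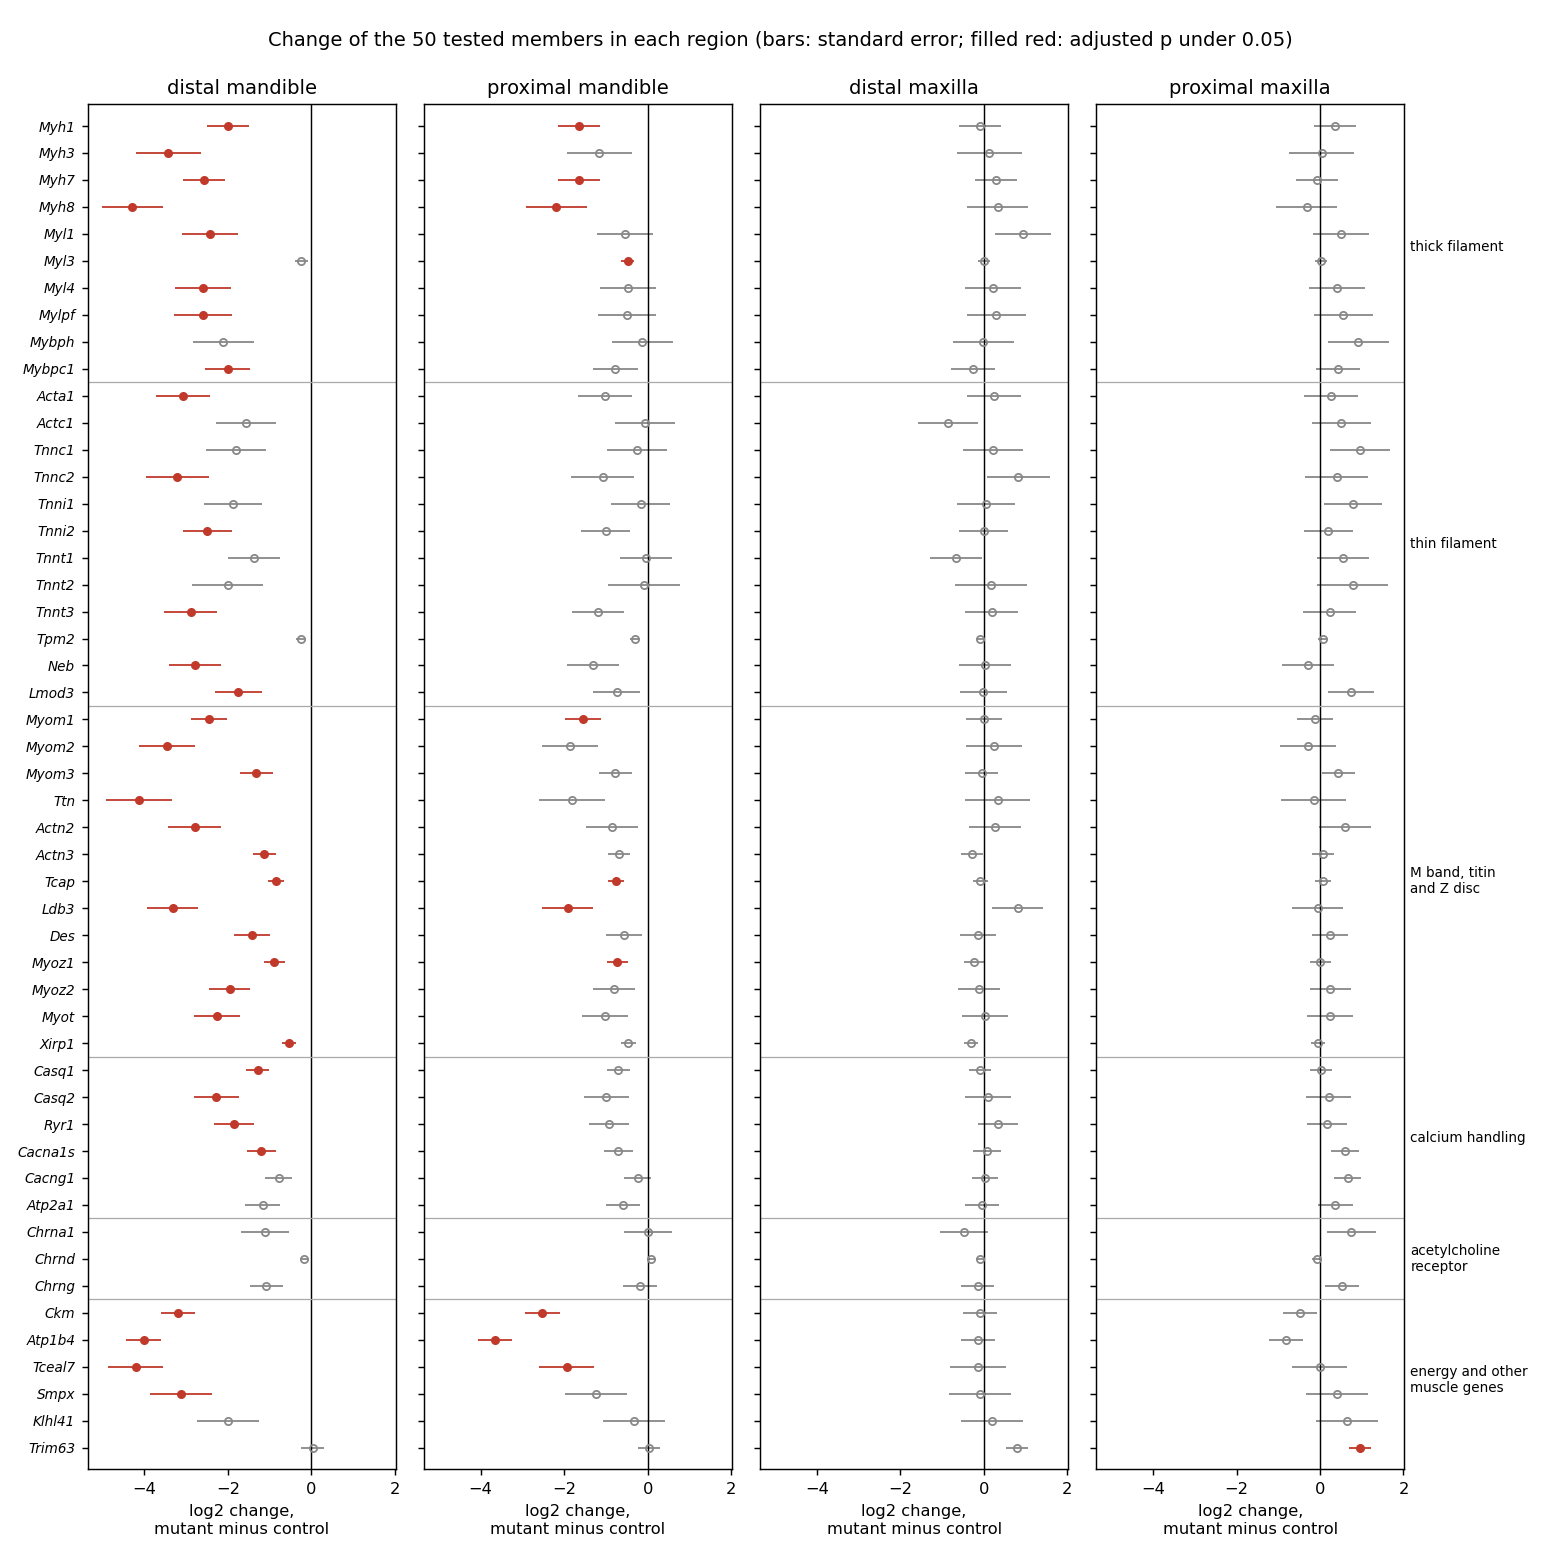
Log2 change, mutant minus control (horizontal axis), of the 50 tested members in the 4 regions, ordered down the page by role, with bars of 1 standard error and filled red points where limma's adjusted p was under 0.05. Red points number 35 for the distal and 11 for the proximal mandible, and for the maxilla there is 1, at the proximal end and to the right of 0.

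In the proximal mandible fewer members passed the test. Of the 50 members 11 were lower in mutants and none was higher, where 19.9% of all genes tested passed in either direction, 10.4% lower and 9.56% higher. The median change was -0.75, 47 of the 50 members were below 0, and for 20 members the mutant arrays lay below all control arrays, as for 15.9% of all genes. Those that fell were 4 of 10 thick filament genes (Myh8, Myh1, Myh7 and Myl3), 4 of 13 M band and Z disc genes (Myom1, Tcap, Ldb3 and Myoz1) and 3 of 6 energy and other genes (Atp1b4, Ckm and Tceal7). No thin filament, calcium handling or acetylcholine receptor gene passed. The median change by role was -1.58 for energy and other genes, -0.81 for M band, titin and Z disc genes, -0.70 for calcium handling, -0.66 for the thick filament, -0.52 for the thin filament and 0.01 for the acetylcholine receptor, and roles were not tested against each other. The count depended on single arrays: it was 3 without mutant proximal mandible 2, 6 without mutant proximal mandible 1, 2 without control proximal mandible 3 and 7 without control proximal mandible 2. Mutant proximal mandible 2 and control proximal mandible 1, which carried Xist and little Y-linked RNA, were lowest of their groups for 46 and 40 members. With Y-linked RNA minus Xist as a covariate, 8 of the 11 members still passed, with the same limit as in the distal mandible. Of the 11 genes, 10 had also fallen in the distal mandible, which is 90.9% of the proximal and 28.6% of the distal calls, and Myl3 passed in the proximal end alone.

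Atp1b4 and Ckm fell most in the proximal mandible and did so whichever array was left out. Atp1b4 belongs by sequence to the sodium pump beta subunits, but in placental mammals its protein sits in the inner nuclear membrane of muscle. It was at 5.35, 5.18 and 5.87 in mutant proximal mandible, against 8.59, 8.75 and 10.00 in control proximal mandible. In the distal mandible it was at 5.67, 5.71 and 5.37 in mutants, against 8.90, 9.80 and 10.13 in controls. All 6 mutant mandible arrays were below the filter level, so the changes of -3.65 (SE 0.41, limma adjusted p = 9.71e-06) in the proximal and -4.02 in the distal mandible are lower limits. The gene lies on the X chromosome. Control arrays numbered 1, which carried Xist, gave 8.90 and 8.59 at the distal and proximal end, above every mutant array, as did those that carried Y-linked RNA.

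Ckm encodes muscle creatine kinase, which regenerates ATP beside the myofibrils. It was at 7.10, 6.72 and 7.23 in mutant proximal mandible, against 8.96, 9.17 and 10.48 in control proximal mandible. In the distal mandible it was at 6.55, 6.26 and 6.76 in mutants, against 8.72, 9.80 and 10.65 in controls. The changes were -2.52 (SE 0.41, limma adjusted p = 0.000225) and -3.20 (SE 0.41, limma adjusted p = 5.62e-05). The largest adjusted p in the proximal mandible with 1 array left out was 0.00205 for Ckm and 0.000119 for Atp1b4. Ckm has another, dimmer probe set, with a mean of 6.73, which changed by 0.18 and 0.01 at the proximal and distal ends. With the mean of both probe sets the changes of Ckm were -1.17 and -1.60, and both still passed.

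A few members had changes near 0 at the same end. Thin filament genes varied there, with a median change of -0.52 and none past the test. Nebulin (Neb) changed by -1.31, Tnnt3 by -1.19, Tnnc2 by -1.08, Acta1 by -1.02 and Tnni2 by -1.0. Changes were smaller for Tnnt2 (-0.09) and Tpm2 (-0.31). Actc1 was at 13.95, 13.22 and 13.92 in mutant proximal mandible, against 13.57, 13.63 and 14.06 in control proximal mandible. The slow troponin T gene Tnnt1 was at 12.07, 11.33 and 12.23 in mutants, against 11.59, 11.72 and 12.43 in controls. The groups overlapped for both, and the changes were -0.06 (SE 0.71) for Actc1 and -0.04 (SE 0.62) for Tnnt1. Chrna1 changed by 0.01 (SE 0.58). With standard errors of this size a moderate change could not be seen. The signs turned when single arrays were left out, from -0.18 to 0.18 for Actc1 and from -0.21 to 0.24 for Tnnt1.

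The 4 promoters below, from RefSeq on mouse build GRCm38.p6, cover the 250 bases before the annotated start of transcription, 5′ to 3′ on the strand of the gene. They belong to the 2 members that fell most in the proximal mandible and the 2 sarcomere genes with changes nearest 0 there, and they were chosen after these values were seen. Capitals mark muscle-type E boxes (the letters CAGCTG, the letters CACCTG, or the reverse complement CAGGTG, so that both strands were searched), the letters read by MyoD-family factors, and CArG boxes, the motif of serum response factor. The MEF2 motif was searched as well. Atp1b4 lies at chrX:38315872-38316121 (plus strand), Ckm at chr7:19410844-19411093 (plus), Tnnt1 at chr7:4515976-4516225 (minus) and Actc1 at chr2:114052876-114053125 (minus).
Atp1b4: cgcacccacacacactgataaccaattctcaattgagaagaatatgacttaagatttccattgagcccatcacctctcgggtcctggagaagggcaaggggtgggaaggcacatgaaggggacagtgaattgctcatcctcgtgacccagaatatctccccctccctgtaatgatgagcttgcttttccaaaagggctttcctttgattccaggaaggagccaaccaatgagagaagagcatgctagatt
Ckm: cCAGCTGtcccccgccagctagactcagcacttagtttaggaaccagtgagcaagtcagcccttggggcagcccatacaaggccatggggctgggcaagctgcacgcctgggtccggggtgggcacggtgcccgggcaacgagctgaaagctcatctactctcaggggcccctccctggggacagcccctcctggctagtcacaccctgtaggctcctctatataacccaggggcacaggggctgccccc
Tnnt1: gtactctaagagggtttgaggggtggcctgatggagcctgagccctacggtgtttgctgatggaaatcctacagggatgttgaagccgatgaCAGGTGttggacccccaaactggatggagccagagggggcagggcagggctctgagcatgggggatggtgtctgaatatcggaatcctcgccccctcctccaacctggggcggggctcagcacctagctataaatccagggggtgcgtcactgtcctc
Actc1: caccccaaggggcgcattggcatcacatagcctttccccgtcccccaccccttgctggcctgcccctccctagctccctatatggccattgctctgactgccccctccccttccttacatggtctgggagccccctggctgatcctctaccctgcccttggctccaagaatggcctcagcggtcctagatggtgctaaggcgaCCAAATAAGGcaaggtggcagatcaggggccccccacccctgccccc
Ckm held 1 muscle-type E box, 249 bases before the start, Tnnt1 held 1 at 158 bases, and Actc1 held a CArG box at 47 bases. None of these 3 motifs occurred in the Atp1b4 window, which says only that these letters are not in these 250 bases. Over the 42 members with a promoter in the table, 57.1% held a muscle-type E box, against 27.4% of all 27025 promoters of this length. The MEF2 motif occurred in 16.7% of member promoters and in 3.0% of all promoters, and the CArG box in 11.9% and 1.4%. The CArG boxes were in Myl3, Acta1, Actc1, Myom1 and Ldb3, and the MEF2 motifs in Myh1, Myh8, Myom3, Ttn, Myoz2, Casq2 and Klhl41.

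**Figure D3:**
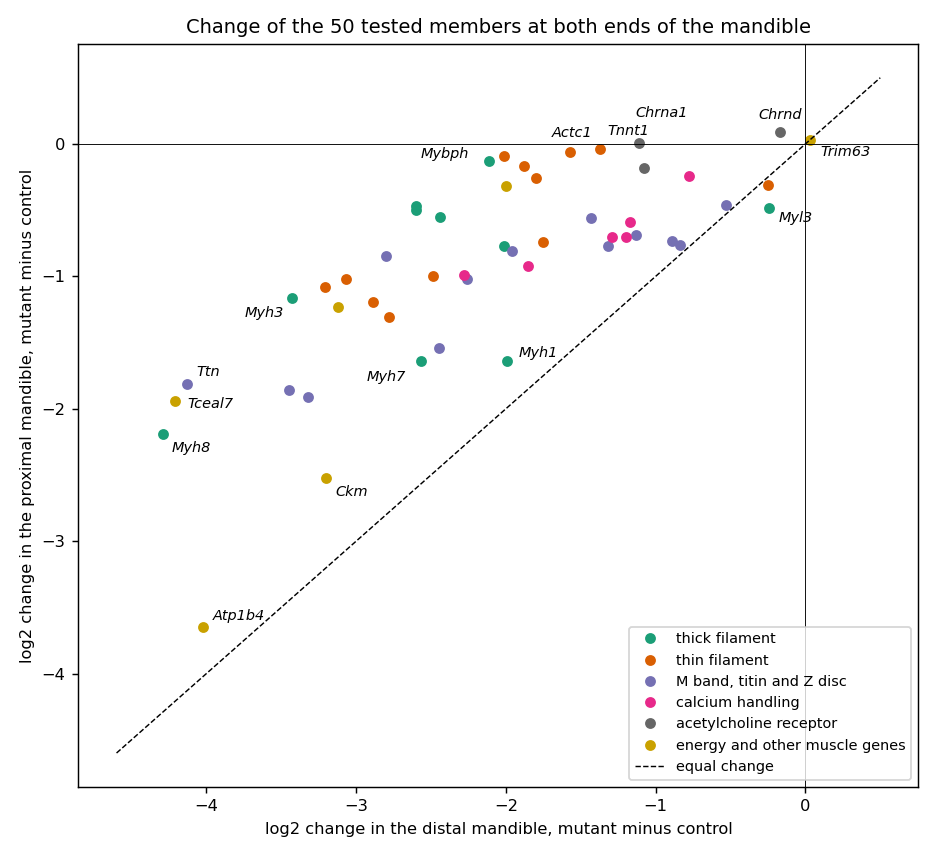
Log2 change, mutant minus control, of the 50 tested members in the distal mandible (horizontal axis) and in the proximal mandible (vertical axis), coloured by role, with a dashed line of equal change. Most points lie above the line, with smaller falls at the proximal end. Atp1b4 (-4.02 and -3.65) lies near the line, while Actc1, Tnnt1 and Chrna1 lie near 0 on the vertical axis.

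The end of the mandible did not set the members' genotype effects apart in a test of the difference itself. No member passed for the genotype effect in the distal minus the proximal mandible, where 15 of all genes tested (0.108%; 0.043% lower and 0.0646% higher) did, although 6 members had an unadjusted p under 0.05 in limma. The median of this difference over the members was -1.24. In the maxilla no member passed either, where 0.201% of all genes did (0.172% lower and 0.0287% higher), and none had an unadjusted p under 0.05. The smaller number of falls at the proximal end of the mandible is therefore not shown to be a difference between ends.

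In the maxilla no member passed as lower. In the distal maxilla none passed in either direction, with or without the mutant array numbered 3, where 2.96% of all genes tested did (1.12% lower and 1.84% higher), and 1 had an unadjusted p under 0.05 in limma. The median change was 0.01, with 2 members lower on all mutant arrays and 2 higher, against 6.97% and 12.9% of all genes. In the proximal maxilla 10.5% of all genes tested passed (4.79% lower and 5.75% higher), and the 1 member that did, Trim63, was higher in mutants. The median change there was 0.24, with 38 members above 0. Without mutant proximal maxilla 3 the median was -0.19 and 42 members were below 0, and without mutant distal maxilla 3 the distal median was -0.19 with 40 members below 0, so the sign of these medians rested on those arrays. Member medians by array were 7.34, 7.32 and 9.21 in mutant proximal maxilla, against 7.38, 8.97 and 6.98 in control proximal maxilla. Mutant proximal maxilla 3 was the highest of its group for 46 members and mutant distal maxilla 3 for 44, so the spread within each genotype was wider than the distance between genotypes. Atp1b4 was at 5.78, 5.50 and 6.30 in mutant proximal maxilla, against 6.56, 7.73 and 5.74 in control proximal maxilla, and its change of -0.82 (SE 0.41) did not pass. Ckm changed by -0.48 (SE 0.41) there. Without both mutant maxilla arrays numbered 3 the changes were -1.04 for Atp1b4 and -0.65 for Ckm, and neither passed.

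Trim63 encodes the muscle RING ubiquitin ligase known for degrading sarcomere proteins in wasting muscle, and it did not follow the other members. It was at 8.01, 8.08 and 8.92 in mutant proximal maxilla, against 7.30, 7.92 and 6.91 in control proximal maxilla, with a change of 0.96 (SE 0.27, limma adjusted p = 0.0291). In mutant distal maxilla it was at 7.77, 7.65 and 8.02, against 7.26, 6.92 and 6.89 in control distal maxilla, where its change of 0.79 did not pass (adjusted p = 0.112). Mutant arrays lay above control arrays at both ends of the maxilla. In the mandible it changed by 0.03 at either end while most members fell. The call in the proximal maxilla was lost with array weights, when only its 6 arrays were fitted, and without mutant proximal maxilla 3, both mutant maxilla arrays numbered 3, or control proximal maxilla 1 or 3.

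Averaged over the 4 regions, 25 members were lower and 1, Trim63, was higher in mutants, where 40.6% of all genes tested passed (15.3% lower and 25.2% higher). The median change was -0.54. The largest were Atp1b4 (-2.15, SE 0.20, limma adjusted p = 2.78e-07), Myh8 (-1.62), Ckm (-1.58) and Tceal7 (-1.57), and Trim63 rose by 0.45 (limma adjusted p = 0.0117). Arrays of the same number may share embryos. With a random replicate block within genotype 15 members passed, Trim63 not among them, and with regions averaged first, also a replicate block, 14 passed. Without mutant proximal mandible 2 there were 17, and without both mutant maxilla arrays numbered 3 there were 39, of which 38 were lower.

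The genotype effect itself differed between jaws. For 19 members it was lower in the mandible than in the maxilla and for none higher, where 6.76% of all genes tested passed in either direction (4.31% lower and 2.45% higher). The median difference was -1.62, against 0.003 for all genes tested. By role these were 6 of 13 M band, titin and Z disc genes, 4 of 6 calcium handling genes, 3 of 10 thick filament genes, 3 of 12 thin filament genes, 3 of 6 energy and other genes and none of 3 acetylcholine receptor genes. Atp1b4 differed by -3.36 (SE 0.41, limma adjusted p = 0.000137), Myh8 by -3.25, Ttn by -3.06 and Ldb3 by -3.0. These and Ckm (-2.57) stayed past the threshold whichever array was left out. Many levels in the maxilla were low. On all control arrays, 17 tested members were below the filter level in the distal and 5 in the proximal maxilla, and a fall could not be seen in such genes. On all mutant arrays these numbers were 12 and 2. The part of low levels in the difference between jaws was not tested.

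The count of 19 depended on single arrays. It was 11 without mutant proximal mandible 2, control distal mandible 3, control proximal mandible 3 or control proximal maxilla 3. It was 12 without mutant distal mandible 2, mutant distal maxilla 3, mutant proximal maxilla 3, control distal mandible 2 or control proximal maxilla 1. It was 34 without control proximal maxilla 2, and 11 without both mutant maxilla arrays numbered 3. With a replicate block it was 32 (fixed) and 36 (random).

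The muscle level of each array was also read from 26 other contractile genes that are not members, such as Csrp3, Hspb7 and Tmod1. Their median was 6.99 to 7.28 in mutant distal mandible, against 7.85 to 8.26 in control distal mandible, and 7.65 to 8.12 in mutant proximal mandible, against 8.17 to 8.86 in control proximal mandible. Of these 26 genes 14 were themselves lower in mutant distal mandible and 6 in mutant proximal mandible. The mutant and control arrays of the same end of the mandible that lay nearest in this median were mutant proximal mandible 3 (8.12) and control proximal mandible 1 (8.17). Atp1b4 was at 5.87 on the mutant and 8.59 on the control array, Ckm at 7.23 and 8.96, and Tnnt1 at 12.23 and 11.59. These 3 genes were chosen after their values were seen, and 1 pair of arrays gives no test.

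**Figure D4:**
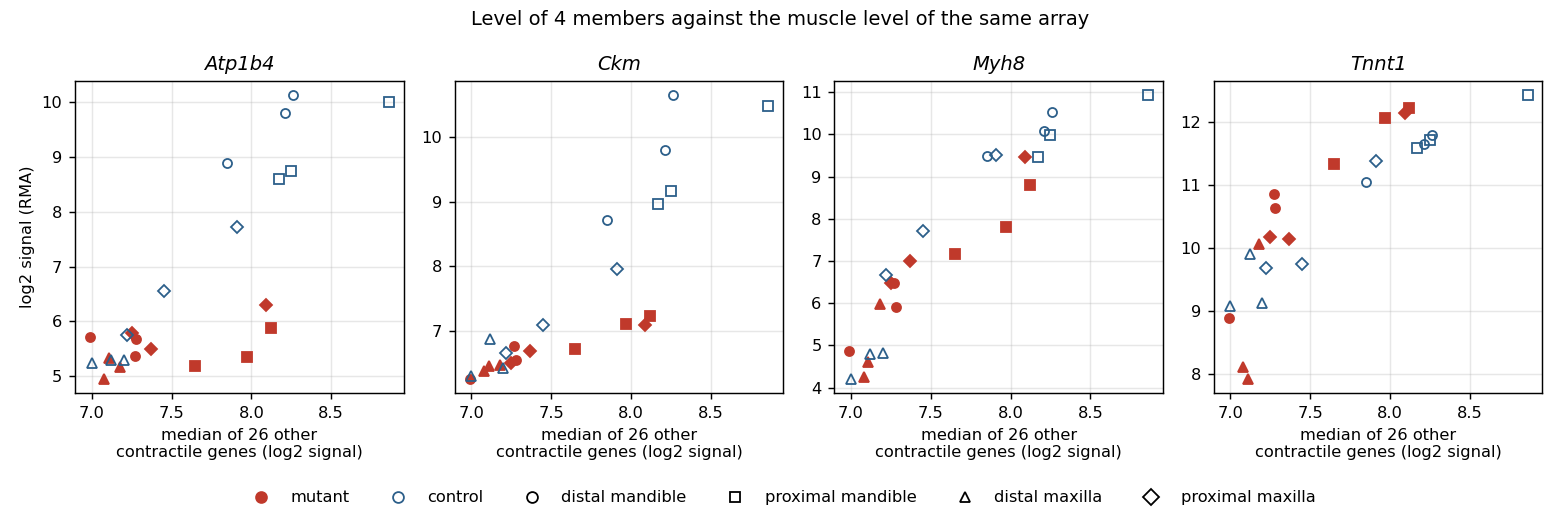
Log2 signal (vertical axis) of Atp1b4, Ckm, Myh8 and Tnnt1 on the 24 arrays against the median log2 signal of 26 other contractile genes on the same array (horizontal axis), with filled red symbols for mutants, open blue for controls and a shape for each region. At horizontal values near 8, mutant points of Atp1b4 and Ckm lie below the control points, while those of Tnnt1 lie at or above them.

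In a fit chosen after seeing the data, the median of these 26 genes entered as a covariate. The covariate itself changed with genotype, so its use removes whatever the members share with those genes. With it, 2 members were lower in mutants in the distal mandible (Atp1b4, -2.51, and Ckm, -1.72), and Trim63 was higher (1.10). In the proximal mandible 2 were lower (Atp1b4, -2.81, SE 0.27, and Ckm, -1.70, SE 0.28) and 4 were higher. These 4 were Chrna1 (1.18), Chrng (0.73), Mybph (1.43), a myosin-binding protein of thick filaments, and Trim63 (0.63). The share of all genes tested that passed in this fit is not given here, so these counts cannot be set against it. The median over the members was -0.10 in the distal and 0.27 in the proximal mandible. In the distal mandible 28 of the 50 members were below 0 with it, against 49 without it, and 8 of the 35 that had passed changed sign.

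Muscle regulators were also counted, where 10.4% of all genes tested were lower in mutant proximal mandible and 7.98% in mutant distal mandible. The shares of regulators were not tested against these. In the proximal mandible 1 of 17, Mef2c (-0.82, SE 0.22, limma adjusted p = 0.0132), was lower, and the median was -0.07. Myod1, the lineage-determining factor, changed by 0.29 and Myog by 0.39, neither past the test. In the distal mandible 3 of 17 were lower: the hepatocyte growth factor receptor Met (-0.73), the bHLH factor Msc (-1.76) and Myf6 (-0.93), the late myogenic factor. The median there was -0.75, and Myod1 (-0.77) and Myog (-0.75) did not pass. Myf6 was at 5.49, 5.42 and 5.72 in mutant proximal mandible, against 5.85, 6.36 and 6.74 in control proximal mandible, and its change of -0.77 did not pass.

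Other muscle genes were counted in the same way, where 7.98% of all genes tested were lower and 8.02% higher in mutant distal mandible. Of 9 genes of muscle metabolism 7 were lower in mutant distal mandible and 4 in mutant proximal mandible, with none higher. The fatty acid carrier Fabp3 fell by 2.43 in the distal and by 1.93 in the proximal mandible, and the muscle enolase Eno3 by 1.06 and 0.91. Of 13 nerve-muscle and membrane genes 1 was lower in mutant distal mandible, the synaptic kinase Musk (-0.45), and 1 was higher, the adult receptor subunit Chrne (0.35), which is near the share of all genes in each direction. In the proximal mandible 2 were lower, the laminin receptor Itga7 (-0.71) and dystrophin, Dmd (-0.67). In the maxilla none of these lists had a gene that passed, apart from Met (-0.55) and Eya1 (-0.53) among the regulators in the proximal maxilla.

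Tendon and leukocyte markers were also lower in mutants in the mandible, whereas epithelial and facial mesenchyme markers were not. Of 5 endothelial markers 2 were lower at each end, and of 3 smooth muscle genes 1 was lower at the proximal end. Of all genes tested 7.98% were lower and 8.02% higher in the distal mandible, and 10.4% and 9.56% in the proximal mandible. Marker counts were not tested against these shares. The tendon median change was -1.96 in the distal and -2.56 in the proximal mandible, and the leukocyte median -1.23 and -0.97. For the members these medians were -2.0 and -0.75. Tendon genes, which mark the tissue that anchors muscle to bone, were lower in mutants for 4 of 5 in the distal and 5 of 5 in the proximal mandible. Thbs4 fell by 3.68 (limma adjusted p = 6.23e-06) and Tnmd by 2.49 in the distal mandible, and in the proximal mandible the changes of Tnmd and Fmod were both -2.75. The median tendon level per array was 8.32 to 8.54 in mutant distal mandible, against 10.13 to 10.47 in control distal mandible, and 6.93 to 8.38 in mutant proximal mandible, against 10.41 to 10.53 in control proximal mandible. Leukocyte markers were lower for 4 of 5 genes at each end of the mandible, for example Csf1r (-1.28) and Ptprc (-1.30) at the distal end. Their median level was 6.68 to 7.19 in mutant and 7.95 to 8.33 in control distal mandible, and 7.28 to 8.01 in mutant and 8.47 to 8.97 in control proximal mandible. Of 5 epithelial markers none passed in the distal mandible and Cdh1 was higher in mutants in the proximal mandible (0.83). Of 5 facial mesenchyme markers Twist1 alone passed, higher at both ends (1.03 and 0.77). The part of these other cells in the members' changes was not tested.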

How the data were processed

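Single-colour arrays, labelled with biotin from 5 µg of total RNA, measured 24 samples. The authors deposited log2 signals of 45101 probe sets, made with RMA per the submitters' processing notes; the log base is taken from the values, and the version is not given in the sources used here. GEO's platform annotation named 34945 probe sets with 1 symbol, and 932 with several and 9160 with none were not used. Genes were compared with limma 3.58.1 in R 4.3.3 on all 24 arrays (1 mean per group, eBayes with trend, Benjamini-Hochberg over 13942 genes, called at an adjusted p under 0.05), and the fit was tested on simulated data. Precision is limited by how few arrays each group has. The members, roles and other gene lists were chosen with earlier results of these data known.

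Per-array values were given for the 2 members of each role with the widest range of group means and the one with the narrowest; in each comparison up to 4 called members with the largest change were named, with paralogues for contrast and up to 3 genes of each other list. Ckm, Actc1, Tnnt1, Myod1, Myog and further genes named outside this rule were chosen after their values were seen. Pairing by array number was checked from residuals: same-numbered arrays correlated at 0.23, 0.17 and 0.19 over the 4 regions, and at 0.02, 0.09 and 0.19 in the distal mandible comparison. Every such correlation passed 0.1 for the mean of regions, the differences of the genotype effect, controls between jaws and the ends of the control mandible. It did not for the genotype comparison of a single region or the ends of the control maxilla. The labels do not say that a number marks an embryo. Alternatives were quantile normalization again, array weights, no filter or the 60th percentile (11079 genes), a minimum log2 change of 1, the mean of probe sets, only the groups compared, replicate blocks, a sex score, each array left out and, added later, a muscle covariate.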

Additional observations from a re-analysis of the deposited data

Results flagged for a closer look

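The difference of the genotype effect between jaws was tested directly and passed for 19 of the 50 tested members, each with a lower value in the mandible than in the maxilla. The largest of these differences on the log2 scale, mandible minus maxilla, were -3.36 for Atp1b4, -3.25 for Myh8, -3.06 for Ttn and -3.0 for Ldb3. Ckm differed by -2.57. In mutant minus control, Ldb3 changed by -3.32 in the distal and -1.91 in the proximal mandible, and by 0.81 and -0.05 in the distal and proximal maxilla. These values are from its brightest probe set. Dimmer Ldb3 probe sets, with means of 6.33 and 5.98, changed less in the mandible, by -0.72 and -0.80 (distal) and -0.70 and -0.84 (proximal). In the maxilla they changed by 0.02 and -0.20 (distal) and -0.05 and -0.04 (proximal). The arrays of the maxilla were dim for many members, as described above, and the part of this in the differences was not tested.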

How the results depend on the processing

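Of 251 recomputed counts of called members 205 stayed within 1.5 times the reported count, and of 1062 recomputed changes of single genes 974 kept direction and side of the threshold. With 1 array left out, counts ranged from 20 to 34 and 2 to 13 at the distal and proximal end of the mandible, 0 to 1 in the proximal maxilla, 17 to 35 for the mean of regions, 11 to 34 for the difference between jaws and 2 to 20 for the ends of the control maxilla. The proximal maxilla count was 0 with array weights, a minimum log2 change of 1, only the groups compared or without both mutant maxilla arrays numbered 3. The mean of regions gave 11 with a minimum change of 1, 17 with the sex score, 15 with a random replicate block and 14 with regions averaged first. The difference between jaws gave 11 without both mutant maxilla arrays numbered 3, and 32 and 36 with a fixed and a random replicate block. The ends of the control maxilla gave 9 with only the groups compared, 25 with a random replicate block and 25 without both mutant maxilla arrays numbered 3. The replicate blocks moved no other count by over 1.5 times, among them those of the mandible (distal 42 and 36, proximal 16 and 14, with a fixed and a random block).

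With the muscle covariate, added after seeing the data, the counts were 3 (distal) and 6 (proximal) for the mandible, 1 (distal) and 3 (proximal) for the maxilla, 11 for the mean, 2 for the difference between jaws, 2 between control jaws, 1 for the ends of the control mandible and 11 for the ends of the control maxilla. Shares of all genes tested that passed in this fit are not given here, so the counts cannot be set against them. With the covariate signs turned for 8 of the 35 called members in the distal mandible, 7 of 26 for the mean and 9 of 50 between control jaws. Among the single genes followed they turned for Actc1 (0.35), Tnnt1 (0.80), Tnni1 (0.76), Tnnc1 (0.61), Chrng (0.57) and Chrna1 (1.01) in the distal mandible, Actc1 (1.0) and Tnnt1 (1.16) in the proximal mandible and Trim63 (0.03) between jaws. Small changes turned sign elsewhere. Array weights gave -0.02 for Trim63 in the distal mandible, 0.02 for Tnnt1 in the proximal mandible and 0.01 for Ckm in the distal maxilla. The sex score gave 0.18 for Actc1 and 0.23 for Tnnt1 in the proximal mandible and 0.07 for Ckm in the distal maxilla. With 1 array left out, Trim63 ranged from -0.09 to 0.10 in the distal and from -0.15 to 0.30 in the proximal mandible, Actc1 from -0.18 to 0.18 and Tnnt1 from -0.21 to 0.24 in the proximal mandible, and Ckm from -0.21 to 0.07 in the distal maxilla. The cause of these shifts was not tested. Genes below the filter level in controls limit what falls can be seen.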

Other observations

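Markers of further cell types were measured in the same fits. Of 5 endothelial markers 2 were lower in mutants at each end of the mandible, the vascular growth factor receptor Kdr (-0.38 distal, -0.48 proximal) and the angiopoietin receptor Tek (-0.49 and -0.48). No neuronal marker of 5 and no cardiac marker of 2 tested passed in any of the 4 regions in limma, and 1, neuronal, had an unadjusted p under 0.05, in the distal mandible. Of 3 smooth muscle genes 1 was lower in mutant proximal mandible, the actin-binding protein Smtn (-0.75), and 1 in mutant distal maxilla, the actin cross-linker Tagln (-0.63). In the proximal maxilla 3 of 5 epithelial markers and 2 of 5 facial mesenchyme markers were higher in mutants, and 2 of 5 tendon genes were lower, Fmod (-1.87) and Scx (-0.85). Trim63 was the one member that passed in the same region, and the part of these cells in it was not tested.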
